A study of Mus musculus with 24 samples.

Results

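Pericytes and smooth muscle cells form the mural layer of brain vessels, and 10 genes that mark them were followed here in mice injected with LLC cells and in mock-injected mice: Abcc9, Kcnj8, Vtn, Notch3, Pdgfrb, Rgs5, Anpep, Acta2, Myh11 and Tagln. The genes were taken by symbol from a table of 47643 gene symbols; all 10 were found, and each passed the filter on low values in every region, a mean of at least 1 TPM (a level scaled to transcript length and to a common library total) over the 8 libraries of that region. The study measured RNA by bulk sequencing in neocortex, cerebellum and hippocampus. In each region, 4 libraries came from mice injected with LLC cells and 4 from control mice given a mock injection, which makes 24 libraries in 6 groups. All mice were C57BL/6J males at an age of 4 months with no engineered allele in the labels, and the tissue was taken about 3 weeks after the injection. The name LLC is common for the Lewis lung carcinoma line of C57BL/6 mice, but it is not written out in the labels, and the series is titled as a study of melanoma and cachexia, the wasting that accompanies cancer. In the titles LLC samples are numbered 1 to 4 and control samples 14 to 17, while the descriptions number both 1 to 4. The labels call them biological replicates, but do not say whether a number stands for the same animal in each region or whether tissue was pooled, so p-values measure the spread between these libraries.

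Pericytes are embedded in the basement membrane of capillaries and venules, where they stabilise the vessel and the blood-brain barrier and are recruited by platelet-derived growth factor from endothelium. Smooth muscle cells encircle arterioles and arteries, contract through smooth muscle actin and myosin, and set blood flow. The channel built from Kcnj8 and Abcc9 opens when cellular ATP is low, which hyperpolarises mural cells and relaxes the vessel.

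The members fall into a group of 7 used as pericyte markers and a group of 3 contractile markers, given here with their positions in GENCODE M21 on mm10. Abcc9 (chromosome 6, 142587862 to 142702315, minus strand) encodes SUR2, the regulatory subunit of the ATP-sensitive potassium channel. Kcnj8 (chromosome 6, 142564837 to 142571614, minus strand) encodes Kir6.1, its pore. Vtn (chromosome 11, 78499091 to 78502324, plus strand) encodes vitronectin, a secreted matrix and plasma protein. Notch3 (chromosome 17, 32120820 to 32166852, minus strand) is the Notch receptor of mural cells, mutated in the human small-vessel disease CADASIL. Pdgfrb (chromosome 18, 61045150 to 61085061, plus strand) is the receptor through which pericytes are recruited. Rgs5 (chromosome 1, 169655501 to 169695813, plus strand) is a GTPase-activating protein that shortens G-protein signals. Anpep (chromosome 7, 79821803 to 79861059, minus strand) encodes aminopeptidase N, also called CD13. Acta2 (chromosome 19, 34241090 to 34255590, minus strand) encodes smooth muscle alpha-actin, Myh11 (chromosome 16, 14194535 to 14291372, minus strand) smooth muscle myosin heavy chain, and Tagln (chromosome 9, 45929619 to 45936058, minus strand) transgelin, an actin-binding protein. On the TPM scale, which is per transcript length, mean levels over the 24 libraries ran from 2.83 TPM for Anpep to 109 TPM for Vtn. Vtn exceeded 90.2% and Rgs5 86.8% of the 14873 genes with a mean of at least 1 TPM, Acta2 60.4%, and Abcc9 and Kcnj8 25.5% and 25.1%.

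Some overlaps bear on how well a value belongs to its gene. Tagln lies antisense to Pcsk7, which shares 5.43% of its exon bases and averaged 24.5 TPM, and to Gm48529, which shares 62.4% of them. Gm48529 is not among the gene symbols with values, so its level is unknown. Abcc9 shares 1.89% of its exon bases with the antisense gene 5330439B14Rik, which is listed at 0. Notch3 shares 6.03% of its exon bases with the antisense gene Gm17276, which averaged 1.76 TPM. The kit marks strand, but whether counting used it is not given in the sources used here. Identical stretches were rare: at most 0.614% of the 50-base stretches of a member's transcripts, that of Abcc9, occurred unchanged in another gene, with 0.326% for Acta2 and 0.391% for Myh11. Sequence that is similar but not identical, as in related genes, was not counted.

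The 250 bases before the gene start of RefSeq are shown for the 2 channel genes, which neighbour each other and moved together, and for Acta2 as a contractile gene that did not pass in any region. The sequences are from RefSeq on GRCm38.p6, which holds an entry for 7 of the 10 members, and read 5′ to 3′ on the gene's strand. They lie at chr6:142702275-142702524 (minus strand) for Abcc9, chr6:142571615-142571864 (minus strand) for Kcnj8 and chr19:34255374-34255623 (minus strand) for Acta2. The RefSeq start of Kcnj8 is that of GENCODE, but 41 bases of the Abcc9 window and 217 of the Acta2 window lie inside the gene as GENCODE draws it. Capitals mark matches to TGGGAA, the core bound by Rbpj, the DNA-binding partner of Notch receptors, and to the CArG box bound by serum response factor, with 1 mismatch allowed in its A/T core.
Abcc9: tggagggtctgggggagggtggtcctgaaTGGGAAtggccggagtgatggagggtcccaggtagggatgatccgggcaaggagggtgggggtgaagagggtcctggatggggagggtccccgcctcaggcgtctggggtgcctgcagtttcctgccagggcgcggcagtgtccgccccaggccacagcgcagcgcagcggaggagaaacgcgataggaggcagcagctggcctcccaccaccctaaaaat
Kcnj8: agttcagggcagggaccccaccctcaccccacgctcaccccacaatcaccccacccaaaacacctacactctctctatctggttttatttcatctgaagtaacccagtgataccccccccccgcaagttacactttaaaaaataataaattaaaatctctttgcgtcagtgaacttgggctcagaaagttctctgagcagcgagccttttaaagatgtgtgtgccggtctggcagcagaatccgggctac
Acta2: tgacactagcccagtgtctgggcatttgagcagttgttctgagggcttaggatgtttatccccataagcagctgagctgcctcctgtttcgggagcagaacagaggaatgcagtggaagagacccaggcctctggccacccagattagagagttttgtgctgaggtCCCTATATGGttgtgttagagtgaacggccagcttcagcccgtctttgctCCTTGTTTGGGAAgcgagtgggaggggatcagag
Both strands were searched. The Acta2 window held 2 CArG boxes with 1 mismatch, at -84 to -75 and -34 to -25 from the RefSeq start, and TGGGAA at -27 to -22, which overlaps the second box. The Abcc9 window held TGGGAA at -221 to -216, and the Kcnj8 window held neither motif. Of 32851 mouse promoter windows of 250 bases, 8.59% held a CArG box with at most 1 mismatch, 1.47% one without a mismatch and 21.6% TGGGAA. A match describes letters only.

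The number of reads is unknown from TPM, and the libraries held 14368 to 14847 genes at 1 TPM or more. The 4 neuron markers Rbfox3, Snap25, Syt1 and Tubb3 summed to 1938 to 2747 TPM in every library. No pair of libraries among 276 was identical. Some libraries stood apart and touch results below. LLC replicate 4 had the lowest erythrocyte marker sum of the LLC libraries in every region, and without it 3834, 1570 and 1667 genes passed in neocortex, cerebellum and hippocampus, against 1237, 366 and 529 with it. Cerebellar LLC replicate 1 had the lowest astrocyte marker sum of its group (672.7 TPM, against 913.1 to 1023 TPM in LLC replicates 2 to 4). Erythrocyte genes were far higher in LLC libraries, with summed levels of 3564 to 15176 TPM in LLC neocortex and 1124 to 1506 TPM in control neocortex.

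In neocortex, 5 of the 10 members rose in LLC mice and 0 fell: Abcc9, Kcnj8, Vtn, Notch3 and Rgs5, all of the pericyte group. Over all 14485 genes tested 8.54% passed, 5.59% upward and 2.95% downward. Abcc9 and Kcnj8 rose most. Fold changes are on the log2(TPM + 1) scale, which understates the change of low genes. In bulk tissue, a change in the number of cells of a type and a change in RNA per cell cannot be told apart. The 3 contractile members did not pass. The median log2 fold change of the 10 was 0.32, beside 0.01 over all genes.

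Abcc9, the SUR2 subunit, had 12.9, 11.3, 11.7 and 6.29 TPM in LLC neocortex, against 4.62, 4.20, 4.81 and 4.56 TPM in control neocortex. All LLC libraries lay above all controls, and replicate 4 was the lowest of the LLC libraries. The log2 fold change was 1.02 ± 0.17 (SE, n = 4 against 4, adjusted p = 0.0124), and Abcc9 passed in each of the 8 fits that left out 1 library. Kcnj8, the pore of the same channel, had 12.4, 10.6, 12.3 and 5.52 TPM in LLC neocortex, against 5.07, 5.86, 4.46 and 4.31 TPM in control neocortex. Here LLC replicate 4 lay among the controls, below control replicate 15. The log2 fold change was 0.87 ± 0.21 (adjusted p = 0.0344). Kcnj8 kept its call without LLC replicate 4 (1.11, adjusted p = 5.30e-05) and lost it without any other single library. The adjusted p was then 0.0678, 0.0720, 0.0898 and 0.0820 without control replicates 14 to 17, and 0.107, 0.0949 and 0.0837 without LLC replicates 1 to 3. It was also lost with no filter on low values (0.0732).

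Vtn, the matrix protein, had 151, 138, 120 and 116 TPM in LLC neocortex, against 104, 104, 87.5 and 94.1 TPM in control neocortex. The groups did not overlap (log2 fold change 0.42 ± 0.09, adjusted p = 0.0210). Notch3, the receptor, had 10.5, 10.9, 9.997 and 8.45 TPM in LLC neocortex, against 7.39, 6.98, 7.07 and 7.52 TPM in control neocortex. The groups again did not overlap (0.41 ± 0.07, adjusted p = 0.0161). Rgs5, the G-protein regulator, had 84.3, 105, 91.3 and 79.2 TPM in LLC neocortex, against 65.7, 66.3, 71.0 and 68.2 TPM in control neocortex, also without overlap (0.39 ± 0.07, adjusted p = 0.0183). In all, 4 members had every LLC library above every control, as did 10.9% of all genes tested. Leaving out 1 library moved these calls across the threshold. Vtn missed it without control replicates 15, 16 and 17 (adjusted p = 0.0550, 0.0667 and 0.0600) and LLC replicates 1 and 2 (0.0636 and 0.0711). Notch3 missed it without control replicates 15 and 16 (0.0564 and 0.0535) and LLC replicates 1 and 2 (0.0603 and 0.0567), and Rgs5 without control replicate 15 (0.0598).

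Pdgfrb, the recruitment receptor, averaged 19.9 ± 1.01 TPM in LLC neocortex, against 16.7 ± 2.30 TPM in the controls (SD over 4 libraries each; log2 fold change 0.25 ± 0.08, adjusted p = 0.0876). Control replicate 14, at 19.7 TPM, lay among the LLC libraries, and Pdgfrb passed without that control (adjusted p = 0.0391) and without LLC replicate 4 (0.0415). Anpep, the peptidase, averaged 3.37 ± 0.224 TPM in LLC neocortex and 3.21 ± 0.269 TPM in control neocortex (0.05 ± 0.07, adjusted p = 0.664). Among the contractile genes the log2 fold changes were 0.04 ± 0.13 for Acta2 (95% interval -0.24 to 0.32), 0.21 ± 0.08 for Myh11 (0.04 to 0.39) and 0.20 ± 0.12 for Tagln (-0.07 to 0.47), with adjusted p-values of 0.855, 0.105 and 0.291. With library weights, which count less steady libraries less, Pdgfrb and Myh11 passed as well (adjusted p = 0.0137 and 0.0230). Of all 14485 genes 4337 passed with weights, against 1237 without them.

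**Figure D1:**
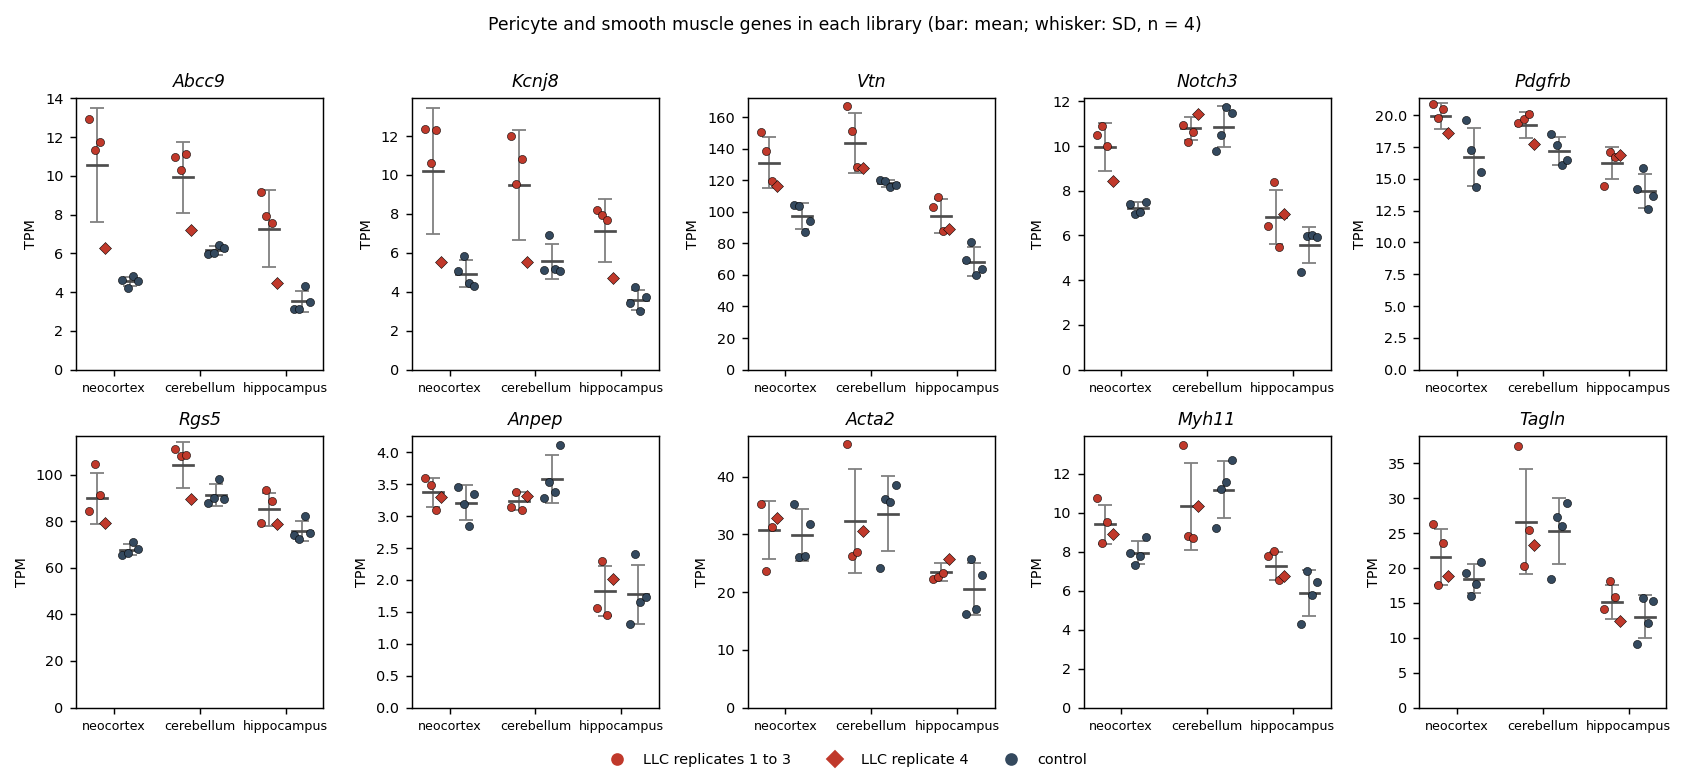
Level of each of the 10 genes in every library (TPM, axes from 0), with LLC libraries in red left of controls in blue for each region. Bars are means and whiskers SD of 4 libraries; LLC replicate 4 is a diamond. Abcc9 and Kcnj8 show the widest gap, with LLC replicate 4 nearest to the controls, while Pdgfrb, Anpep, Acta2, Myh11 and Tagln overlap in every region.

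In cerebellum, Abcc9 was the only member that rose and 0 fell, while 2.5% of 14624 genes passed, 1.23% upward and 1.27% downward. It had 11.0, 10.3, 11.1 and 7.22 TPM in LLC cerebellum, against 5.94, 6.02, 6.44 and 6.28 TPM in control cerebellum, without overlap (log2 fold change 0.59 ± 0.12, adjusted p = 0.0458). The call held without LLC replicate 1 (adjusted p = 0.0326) and without LLC replicate 4 (0.00174). It was lost without LLC replicates 2 and 3 (0.116 and 0.0942), without control replicates 14 to 17 (0.0985, 0.155, 0.139 and 0.106) and with no filter on low values (0.0812). Kcnj8 had 11.99, 9.56, 10.8 and 5.51 TPM in LLC cerebellum, against 5.13, 6.93, 5.15 and 5.06 TPM in control cerebellum. LLC replicates 1 to 3 lay above all controls and replicate 4 lay below control replicate 15. The log2 fold change of 0.64 ± 0.20 (95% interval 0.19 to 1.08) did not pass (adjusted p = 0.103). Vtn had 167, 151, 128 and 128 TPM in LLC cerebellum, against 120, 119, 116 and 117 TPM in control cerebellum. It did not overlap, yet did not pass either (0.27 ± 0.09, adjusted p = 0.105); Vtn and Abcc9 were the 2 members without overlap, as were 6.42% of all genes with LLC above control. Without LLC replicate 4, 4 members passed, with adjusted p-values of 0.00722 for Kcnj8, 0.0475 for Vtn and 0.0318 for Rgs5 beside that of Abcc9. Over all genes 1570 passed without that library, against 366 with it.

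The other cerebellar values were closer. Notch3 had 11.0, 10.2, 10.6 and 11.4 TPM in LLC cerebellum, against 9.78, 10.5, 11.7 and 11.5 TPM in control cerebellum and the groups overlapped (-0.01 ± 0.08, 95% interval -0.19 to 0.17, adjusted p = 0.965). Rgs5 averaged 104 ± 9.95 TPM in LLC cerebellum and 91.4 ± 4.71 TPM in control cerebellum (0.18 ± 0.08, adjusted p = 0.186), and Pdgfrb averaged 19.2 ± 1.02 TPM in LLC cerebellum and 17.2 ± 1.10 TPM in control cerebellum (0.15 ± 0.07, adjusted p = 0.226). Anpep had a log2 fold change of -0.11 ± 0.09, Acta2 of -0.07 ± 0.19, Myh11 of -0.11 ± 0.14 and Tagln of 0.05 ± 0.19, with adjusted p-values of 0.478, 0.852, 0.649 and 0.882. The median of the 10 members was 0.10, beside -0.04 over all genes. With library weights 7 members passed, and 2 of these were lower in LLC cerebellum: Acta2 (-0.35, adjusted p = 0.0254) and Myh11 (-0.31, adjusted p = 0.0137). Of all 14624 genes 5769 passed with weights, against 366 without them.

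In hippocampus, 3 members rose and 0 fell: Abcc9, Kcnj8 and Vtn, where 3.61% of 14650 genes passed, 2.58% upward and 1.03% downward. Abcc9 had 9.18, 7.91, 7.56 and 4.46 TPM in LLC hippocampus, against 3.12, 3.14, 4.31 and 3.49 TPM in control hippocampus (log2 fold change 0.85 ± 0.18, adjusted p = 0.0358). Kcnj8 had 8.20, 7.96, 7.71 and 4.70 TPM in LLC hippocampus, against 3.44, 4.22, 2.99 and 3.72 TPM in control hippocampus (0.81 ± 0.16, adjusted p = 0.0296). For both genes LLC replicate 4 sat just above the highest control and far below the other LLC libraries. Vtn had 103, 109, 87.7 and 88.9 TPM in LLC hippocampus, against 69.3, 81.1, 59.8 and 63.5 TPM in control hippocampus (0.50 ± 0.10, adjusted p = 0.0314). These 3 members were without overlap, as were 8.95% of all genes with LLC above control. All 3 passed without LLC replicate 4 (adjusted p = 0.00122, 9.28e-04 and 0.0140), and Vtn also without control replicate 15 (0.0368). Each was lost without any other single library. The adjusted p was then 0.0641 to 0.104 for Abcc9 and 0.0676 to 0.0804 for Kcnj8 without control replicates 14 to 17 or LLC replicates 1 to 3. For Vtn it was 0.0517 to 0.0831 without control replicates 14, 16 and 17 or LLC replicates 1 to 3. With no filter on low values 0 members passed (0.0724, 0.0599 and 0.0600 for Abcc9, Kcnj8 and Vtn).

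The remaining hippocampal members had higher means in LLC mice without passing. Rgs5 averaged 85.1 ± 7.08 TPM in LLC hippocampus and 75.9 ± 4.42 TPM in control hippocampus (0.16 ± 0.06, adjusted p = 0.181), and Pdgfrb 16.3 ± 1.25 TPM in LLC hippocampus and 14.1 ± 1.35 TPM in control hippocampus (0.20 ± 0.08, adjusted p = 0.187). Notch3 had 6.42, 8.40, 5.49 and 6.96 TPM in LLC hippocampus, against 4.37, 5.98, 6.02 and 5.92 TPM in control hippocampus, which overlapped (0.25 ± 0.13, adjusted p = 0.295). The contractile genes Acta2, Myh11 and Tagln had log2 fold changes of 0.21 ± 0.13, 0.28 ± 0.13 and 0.21 ± 0.16, with adjusted p-values of 0.383, 0.231 and 0.480. Anpep had 0.03 ± 0.15 (adjusted p = 0.914). The median of the 10 was 0.23, beside 0.01 over all genes.

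Averaged over the 3 regions of each replicate number, 4 members rose and 0 fell, where 13.1% of 14873 genes passed, 7.66% upward and 5.45% downward. These were Abcc9 (log2 fold change 0.82 ± 0.15, adjusted p = 0.0117), Kcnj8 (0.77 ± 0.18, adjusted p = 0.0241), Vtn (0.40 ± 0.08, adjusted p = 0.0159) and Rgs5 (0.25 ± 0.06, adjusted p = 0.0311). Notch3 and Pdgfrb, at 0.22 ± 0.06 and 0.20 ± 0.06, just missed the threshold (adjusted p = 0.0511 and 0.0572), and both passed after rescaling without haemoglobin genes (adjusted p = 0.0429 and 0.0486). Notch3 also passed with the filter at 5 TPM, with median-ratio scaling and with quantile normalization (adjusted p = 0.0492, 0.0392 and 0.0341). Abcc9 passed in all 8 fits without 1 number. Kcnj8 and Rgs5 passed only without number 4 (adjusted p = 1.09e-04 and 0.00234) and were at 0.0529 to 0.0765 and 0.0521 to 0.0972 without any other number, controls included. Vtn was lost without number 16 (0.0571).

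Without a replicate block, for no member did the effect of LLC injection pass the test of a difference between regions. In the test of the difference, 0 of 10 members passed for cerebellum against neocortex, where 0.646% of all genes did, 0 for hippocampus against neocortex, where 0% did (0 of 14152 genes, with 271 at an unadjusted p under 0.05), and 0 for hippocampus against cerebellum, where 0.0936% did. By limma, 1 member had an unadjusted p under 0.05 in each of the 3 contrasts. For cerebellum minus neocortex it was Notch3, which differed by -0.41 ± 0.14 (95% interval -0.71 to -0.12, adjusted p = 0.199). For hippocampus minus neocortex it was Rgs5, at -0.23 ± 0.11 (adjusted p = 1.00), and for hippocampus minus cerebellum Myh11, at 0.39 ± 0.18 (adjusted p = 0.374). The intervals for Abcc9 were -0.95 to 0.09 for cerebellum minus neocortex and -0.69 to 0.35 for hippocampus minus neocortex. Without number 4 the Abcc9 difference between cerebellum and neocortex passed (-0.51, adjusted p = 0.0340), and with library weights it passed together with those of Notch3 and Myh11 (adjusted p = 0.0241, 0.00204 and 0.00619). Over all genes 2052 passed this contrast with weights, against 89 without them.

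**Figure D2:**
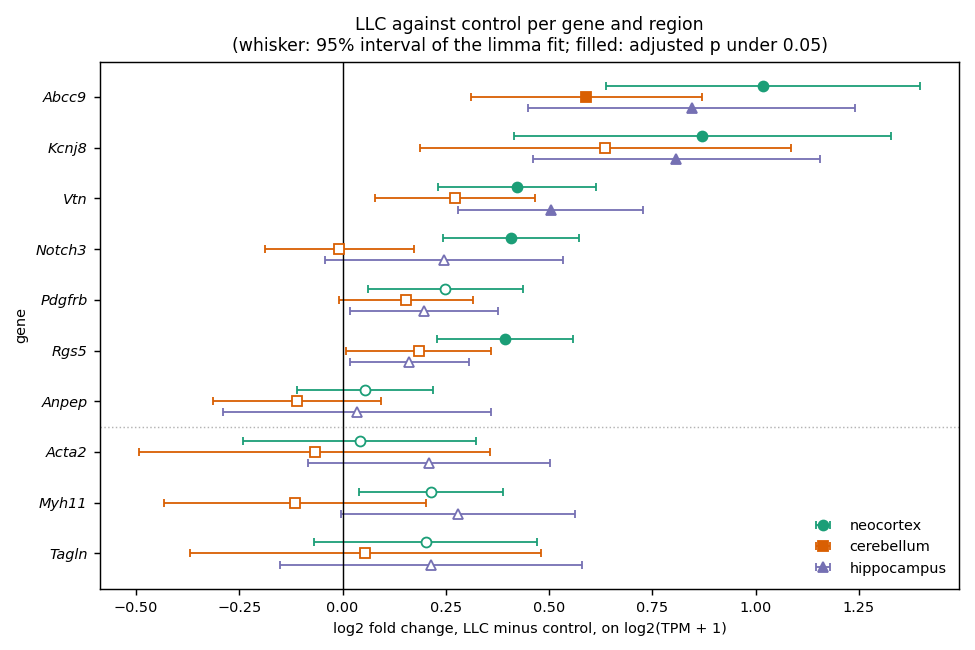
Log2 fold change of LLC against control for each gene and region on the log2(TPM + 1) scale, with 95% intervals; filled symbols passed at an adjusted p under 0.05. Abcc9 lies at 1.02, 0.59 and 0.85 in neocortex, cerebellum and hippocampus, and the 3 contractile genes below the dotted line cross 0 except for Myh11 in neocortex.

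The 2 genes of the mural potassium channel were at near-equal levels. Abcc9 over Kcnj8, both in TPM, was 1.05 ± 0.0765 in LLC and 0.941 ± 0.167 in control neocortex, 1.08 ± 0.166 in LLC and 1.13 ± 0.179 in control cerebellum, and 1.01 ± 0.0744 in LLC and 1.01 ± 0.30 in control hippocampus (SD, n = 4 each). The ratios overlapped between LLC and control in each region. The genes are neighbours on the minus strand, with 16247 bases between them. Of 8 other protein-coding genes tested within 500 kb of the pair, 0 passed in any region by limma, and 2, 3 and 1 had an unadjusted p under 0.05 in neocortex, cerebellum and hippocampus with a lowest adjusted p of 0.126, 0.146 and 0.218. Their log2 fold changes lay between -0.32 and 0.23. The channel subunits of neurons, Kcnj11 and Abcc8, did not pass either (0 of 2 in each region, with 1, 0 and 0 at an unadjusted p under 0.05). Kcnj11 averaged 37.5 ± 3.01 TPM in LLC neocortex and 32.1 ± 1.85 TPM in control neocortex (0.21 ± 0.06, adjusted p = 0.0580), and 1 of the 2 passed without LLC replicate 4. Abcc8 averaged 16.4 ± 1.12 TPM in LLC neocortex and 16.1 ± 1.26 TPM in control neocortex (0.03 ± 0.07, adjusted p = 0.795).

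**Figure D3:**
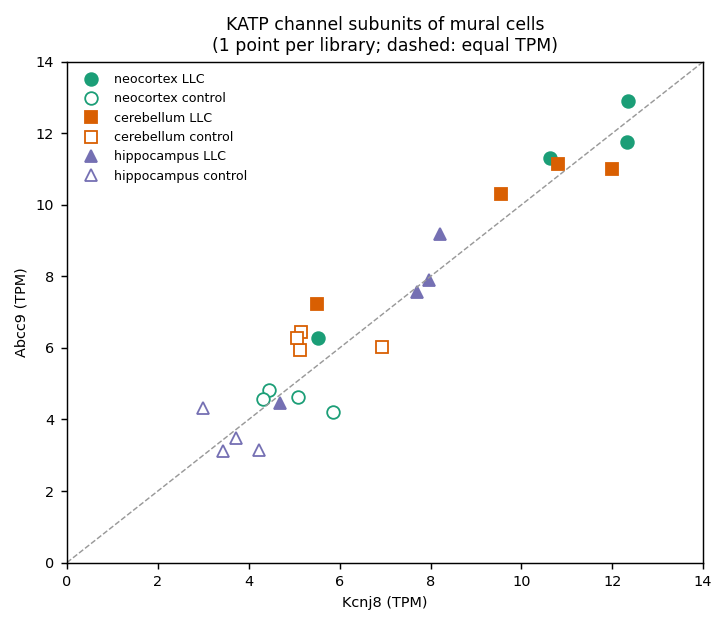
Abcc9 against Kcnj8 in each of the 24 libraries (TPM on both axes, dashed line at equal values); filled symbols are LLC libraries and open symbols controls. LLC replicates 1 to 3 of every region lie at 7.56 TPM or more for both genes, above all controls, whereas the 3 LLC replicate 4 libraries lie at 4.46 to 7.22 TPM for Abcc9, close to the controls.

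LLC replicate 4 was the lowest LLC library for Abcc9 and Kcnj8 in all 3 regions. The erythrocyte sum was lowest in the same libraries, at 3564, 4247 and 2621 TPM in LLC replicate 4 of neocortex, cerebellum and hippocampus, against 11766 to 15176, 14415 to 15574 and 7104 to 10396 TPM in LLC replicates 1 to 3. The sum of the endothelial markers was also the lowest of the LLC libraries there, at 420, 396 and 334 TPM. Rescaling the libraries without haemoglobin genes and Alas2 left the members called at 5, 1 and 3 in the 3 regions. Before it, 8.54%, 2.5% and 3.61% of all genes passed there. Such rescaling changes only the common total of a library. It does not speak to the part of blood in the levels of the members, which was not tested.

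Of the 3 contractile genes 0 passed in any region by limma, with 1, 0 and 0 at an unadjusted p under 0.05 and medians of 0.20, -0.07 and 0.21 in neocortex, cerebellum and hippocampus. The median in hippocampus was close to that of the pericyte group there (0.25), and the difference between the groups was not tested. Acta2 had 35.3, 23.7, 31.3 and 32.9 TPM in LLC neocortex, against 35.3, 26.0, 26.3 and 31.7 TPM in control neocortex. It had 45.6, 26.3, 26.9 and 30.5 TPM in LLC cerebellum, against 24.1, 36.1, 35.5 and 38.5 TPM in control cerebellum. Cerebellar LLC replicate 1 was the highest and control replicate 14 the lowest of the region, and the groups overlapped. In hippocampus Acta2 had 22.3, 22.7, 23.3 and 25.8 TPM in LLC mice, against 16.3, 25.7, 17.1 and 23.0 TPM in control mice. Tagln showed the same 2 extreme cerebellar libraries, at 37.5 TPM in LLC replicate 1 and 18.5 TPM in control replicate 14. Myh11 was also highest in LLC replicate 1, at 13.5 TPM. Its control replicate 14, at 9.19 TPM, was the lowest control but lay above LLC replicates 2 and 3. Myh11 otherwise had 8.71 to 10.4 TPM in LLC replicates 2 to 4 and 11.2 to 12.7 TPM in control replicates 15 to 17. Without LLC replicate 1 the cerebellar log2 fold changes of Acta2, Myh11 and Tagln were -0.24, -0.24 and -0.12, with adjusted p-values of 0.284, 0.179 and 0.616. The summed level of the 3 over that of the 7 pericyte genes was 0.227 ± 0.0407 in LLC and 0.279 ± 0.0322 in control neocortex, 0.230 ± 0.0480 in LLC and 0.277 ± 0.0497 in control cerebellum, and 0.208 ± 0.0114 in LLC and 0.228 ± 0.0449 in control hippocampus, and overlapped between LLC and control in each region.

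Other genes of mural cells, chosen with results of these data known, were higher in LLC neocortex too. Over all genes 5.59% rose and 2.95% fell there. Of the 23 mural genes tested, 8 rose and 0 fell, with a median log2 fold change of 0.23. The 4 with the smallest p were Enpep, glutamyl aminopeptidase of pericytes (0.36 ± 0.07, adjusted p = 0.0183), Heyl, a target of Notch3 (0.42 ± 0.09, adjusted p = 0.0221), Ndufa4l2, a mitochondrial protein induced by low oxygen (0.68 ± 0.15, adjusted p = 0.0261), and Higd1b, a pericyte marker (0.62 ± 0.15, adjusted p = 0.0388). In hippocampus 2 of 22 rose, Ndufa4l2 (0.75 ± 0.12, adjusted p = 0.0171) and the transcription factor Tbx2 (0.49 ± 0.11, adjusted p = 0.0406), with a median of 0.28. In cerebellum 0 of 24 passed by limma, 7 had an unadjusted p under 0.05, and the median was 0.17. Over all genes 2.58% rose in hippocampus and 2.5% passed in cerebellum. The counts over all genes depended on the libraries used. Without LLC replicate 4 they were 3834 in neocortex, 1570 in cerebellum and 1667 in hippocampus. The counts of the mural list did so too. Without 1 library the neocortical count was 4 without control replicate 14, 3 without LLC replicate 3, 1 without control replicates 15 or 17, 0 without control replicate 16 or LLC replicates 1 or 2, and 12 without LLC replicate 4. Without LLC replicate 4 it was 5 in cerebellum and 5 in hippocampus; the hippocampal count was 0 without control replicate 14 or LLC replicate 2 and 1 without control replicates 15, 16 or 17 or LLC replicates 1 or 3. In cerebellum it was 2 without LLC replicate 1 and 0 without any other library except LLC replicate 4.

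Of 21 other genes of contraction, 2 rose and 1 fell in neocortex, with 10 at an unadjusted p under 0.05, where 8.54% of all genes passed and 4320 of 14485 had an unadjusted p under 0.05. Casq2, a calcium store protein, averaged 6.44 ± 1.52 TPM in LLC neocortex and 3.64 ± 0.876 TPM in control neocortex (0.67 ± 0.16, adjusted p = 0.0365), and Mylk, the myosin light chain kinase, 7.09 ± 0.397 TPM in LLC neocortex and 6.00 ± 0.131 TPM in control neocortex (0.21 ± 0.06, adjusted p = 0.0485). Ppp1r14a, an inhibitor of myosin phosphatase that oligodendrocytes also express, fell to 15.5 ± 1.29 TPM in LLC neocortex, against 18.4 ± 0.517 TPM in control neocortex (-0.24 ± 0.06, adjusted p = 0.0361). In cerebellum 0 of 21 and in hippocampus 0 of 19 passed by limma, with 8 and 4 at an unadjusted p under 0.05, and the medians were 0.00, -0.11 and -0.06 in neocortex, cerebellum and hippocampus. Without cerebellar LLC replicate 1, 5 of the 21 fell and 0 rose. With all libraries 1.27% of all genes fell in cerebellum. The count over all genes moved with single libraries as well, and the share without that replicate is not given here. The neocortical calls were 0 without control replicates 15, 16 or 17 or LLC replicates 1, 2 or 3, 1 up and 1 down without control replicate 14, and 5 up and 3 down without LLC replicate 4. Myocd, Actg2 and Kcnmb1 were below the filter everywhere.

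Signalling partners of the members were read in lists. The share of all genes that passed, to be set beside each count, was 8.54% in neocortex, 2.5% in cerebellum and 3.61% in hippocampus. An unadjusted p under 0.05 was found for 4320 of 14485, 3563 of 14624 and 3259 of 14650 genes. Of 14 Notch pathway genes beside Notch3, 4 rose and 1 fell in neocortex: the ligand Jag2 (0.25 ± 0.05, adjusted p = 0.0159), the receptors Notch4 (0.89 ± 0.17, adjusted p = 0.0186) and Notch1 (0.21 ± 0.05, adjusted p = 0.0366) and Dll4, an endothelial ligand named after its values were seen (0.58 ± 0.16, adjusted p = 0.0486), rose, and Hes5, a target gene of astrocytes and progenitors, fell (-0.91 ± 0.16, adjusted p = 0.0157). In hippocampus Notch4 rose (0.73 ± 0.16, adjusted p = 0.0374) and Hes5 fell (-1.14 ± 0.18, adjusted p = 0.0186). In cerebellum 0 of 14 passed by limma, with 6 at an unadjusted p under 0.05. Of 6 genes of platelet-derived growth factor signalling beside Pdgfrb, 1 rose in neocortex, Pdgfra, the receptor of oligodendrocyte precursors and fibroblasts (0.21 ± 0.05, adjusted p = 0.0369). In cerebellum and hippocampus 0 of 6 passed by limma, with 0 and 1 at an unadjusted p under 0.05. Of 10 genes of TGF-beta and angiopoietin signalling, 6 rose and 1 fell in neocortex, led by Acvrl1 (0.54 ± 0.07, adjusted p = 0.00329), Tgfbr2 (0.47 ± 0.06, adjusted p = 0.00492), Eng (0.82 ± 0.12, adjusted p = 0.00668) and Tie1 (0.36 ± 0.06, adjusted p = 0.00929); the gene that fell, named after its values were seen, was the receptor Tgfbr1 (-0.22 ± 0.06, adjusted p = 0.0492). Acvrl1 and Eng, receptors of endothelium, were also the 2 of 10 that rose in cerebellum (0.61 ± 0.13 and 0.72 ± 0.11, adjusted p = 0.0492 and 0.0212) and in hippocampus (0.63 ± 0.08 and 0.83 ± 0.09, adjusted p = 0.0100 and 0.00442).

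The same shares, 8.54%, 2.5% and 3.61% of all genes in neocortex, cerebellum and hippocampus, stand beside the next 2 lists. Of the integrins and binding partners of vitronectin, 1 of 6 rose in neocortex, Plaur, the urokinase receptor (0.65 ± 0.16, adjusted p = 0.0376). In cerebellum Plaur rose (0.79 ± 0.18, adjusted p = 0.0492) and Itgb8 fell (-0.47 ± 0.08, adjusted p = 0.0271), and in hippocampus 0 of 5 passed, with 0 at an unadjusted p under 0.05. Of 8 genes of G-protein signalling beside Rgs5, Gna11 rose and Rgs2 fell in neocortex (0.19 ± 0.05 and -0.29 ± 0.07, adjusted p = 0.0433 and 0.0333), and Gna11 rose and Rgs4, a neuronal regulator, fell in hippocampus (0.17 ± 0.04 and -0.36 ± 0.08, adjusted p = 0.0393 and 0.0444). In cerebellum 0 of 8 passed, with 0 at an unadjusted p under 0.05.

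The counts of these partner lists moved with single libraries, as did those over all genes. In neocortex the Notch count was 5 up and 1 down without LLC replicate 4, 2 up and 1 down without control replicate 14 or LLC replicate 3, 1 up and 1 down without control replicates 16 or 17, and 0 without control replicate 15 or LLC replicates 1 or 2. In hippocampus it was 2 up and 1 down without LLC replicate 4, 1 down without control replicate 17 or LLC replicates 1 or 3, and 0 without any other library, and in cerebellum 5 up without LLC replicate 4 and 1 up without LLC replicate 1. The neocortical count of the growth factor list was 2 without LLC replicate 4, 1 without LLC replicate 3 and 0 without any other library. For the vitronectin list it was 1 without LLC replicate 4 and 0 without any other, and in cerebellum 1 up and 1 down without LLC replicates 1 or 4 and 0 without any other. For the G-protein list it was 2 up and 3 down without LLC replicate 4, 1 down without control replicate 14 and 0 without any other, and in hippocampus 1 up and 1 down without LLC replicate 4 and 0 without any other. The TGF-beta and angiopoietin count was 8 up and 1 down in neocortex without LLC replicate 4 and 4 up without any other library. In cerebellum it was 3 up and 1 down without LLC replicate 1, 4 up and 1 down without LLC replicate 4 and 0 without any other, and in hippocampus 3 up without LLC replicate 4 and 2 up without any other.

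Endothelial genes moved with the pericyte genes. The share of all genes that rose was 5.59% in neocortex, 1.23% in cerebellum and 2.58% in hippocampus. Of 10 endothelial markers, 8 rose and 1 fell in neocortex, 2 rose and 1 fell in cerebellum, and 7 rose and 1 fell in hippocampus; the gene that fell was Itm2a each time (-0.35, -0.64 and -0.48, adjusted p = 0.0110, 0.0150 and 0.0135), a membrane protein, named for neocortex after its values were seen. Those with the smallest p in neocortex were the receptor Flt1 (0.85 ± 0.11, adjusted p = 0.00348), the adhesion molecule Pecam1 (0.94 ± 0.12, adjusted p = 0.00459), the receptor Kdr (1.09 ± 0.15, adjusted p = 0.00492) and Ly6c1 (1.16 ± 0.16, adjusted p = 0.00605). Without 1 library 6 to 9 rose in neocortex. In cerebellum 5 rose without LLC replicate 1 or 4 and 0 without any other library. In hippocampus 2 rose without control replicate 14, 4 without control replicate 16 or LLC replicate 2, and 5 to 8 without any other. Their summed level was 505 ± 60.7 TPM in LLC mice, against 348 ± 12.7 TPM in controls, in neocortex, 485 ± 83.2 TPM in LLC mice, against 384 ± 7.28 TPM in controls, in cerebellum, and 378 ± 29.7 TPM in LLC mice, against 279 ± 14.3 TPM in controls, in hippocampus. Its range in LLC libraries lay above that in controls in each region: 420 to 555 TPM against 333 to 364 TPM, 396 to 594 TPM against 379 to 394 TPM, and 334 to 397 TPM against 261 to 291 TPM. The summed pericyte group was 275 ± 28.4 TPM in LLC mice, against 202 ± 8.48 TPM in controls, in neocortex, 301 ± 30.4 TPM in LLC mice, against 253 ± 3.39 TPM in controls, in cerebellum, and 222 ± 18.3 TPM in LLC mice, against 173 ± 8.11 TPM in controls, in hippocampus. The pericyte sum over the endothelial sum was 0.545 ± 0.0174 in LLC and 0.580 ± 0.0114 in control neocortex, 0.625 ± 0.0437 in LLC and 0.659 ± 0.0176 in control cerebellum, and 0.587 ± 0.0327 in LLC and 0.620 ± 0.0334 in control hippocampus. In neocortex every LLC ratio lay below every control ratio (0.530 to 0.566, against 0.570 to 0.596), and in the other regions the ranges overlapped.

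The 2 channel genes had higher means in LLC mice also relative to the summed endothelial markers. That sum includes Itm2a, which fell, and the ratio depends on the markers summed. In neocortex the single markers Kdr and Ly6c1 had larger log2 fold changes than Abcc9, and Flt1 and Pecam1 smaller ones. Abcc9 plus Kcnj8 over the endothelial sum was 0.0404 ± 0.00871 in LLC and 0.0272 ± 0.00144 in control neocortex, 0.0398 ± 0.00658 in LLC and 0.0306 ± 0.00231 in control cerebellum, and 0.0377 ± 0.00713 in LLC and 0.0255 ± 0.00174 in control hippocampus. In LLC replicate 4 the ratio was 0.0281, 0.0321 and 0.0274 in the 3 regions, within the range of the controls. Markers of other cells that the tissue could hold gave a different picture. The share of all genes that passed was 8.54% in neocortex, 2.5% in cerebellum and 3.61% in hippocampus. Of the fibroblast and meningeal markers, 0 of 7 passed in neocortex, with 1 at an unadjusted p under 0.05, and Lum fell in cerebellum (1 of 8) and hippocampus (1 of 7). Their sum was 118 ± 26.1 TPM in LLC mice, against 103 ± 7.35 TPM in controls, in neocortex, 200.1 ± 24.2 TPM in LLC mice, against 207 ± 4.97 TPM in controls, in cerebellum, and 109 ± 45.5 TPM in LLC mice, against 149 ± 24.9 TPM in controls, in hippocampus. Without 1 library the cerebellar count was 0 without control replicates 15 or 16 and 2 without LLC replicate 1, and the hippocampal count was 0 without control replicates 14, 15 or 16 or LLC replicates 1 or 3. Of the erythrocyte genes 5 of 5 rose in each region, with medians of 2.96, 2.95 and 2.78. Choroid plexus genes passed in 0 of 6 cases in each region, with 0, 2 and 0 at an unadjusted p under 0.05. Their sum varied widely between hippocampal libraries, from 13.9 to 144 TPM in LLC mice and from 13.3 to 113 TPM in controls. Of 4 astrocyte markers Slc1a3 rose (0.24, adjusted p = 0.0402) and Aqp4 fell in neocortex (-0.65, adjusted p = 0.0344), Aqp4 fell in cerebellum (-0.87, adjusted p = 0.0344), and 0 passed in hippocampus, with 3 at an unadjusted p under 0.05. The oligodendrocyte markers Mag and Mog, from a list not given in full here, fell in neocortex (-0.38 and -0.18, adjusted p = 0.0183 and 0.0379) and did not pass in cerebellum (-0.22 and -0.073) or hippocampus (-0.22 and -0.096). Of 4 neuron markers Tubb3 fell in neocortex (-0.46) and hippocampus (-0.58), Rbfox3 rose in hippocampus (0.16), and 0 passed in cerebellum, with 0 at an unadjusted p under 0.05. Of 4 microglia markers 0 passed in any region, with 3, 2 and 1 at an unadjusted p under 0.05. No tested marker had a mean of 0 in any group. The part of these cells in the levels of the members was not tested.

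**Figure D4:**
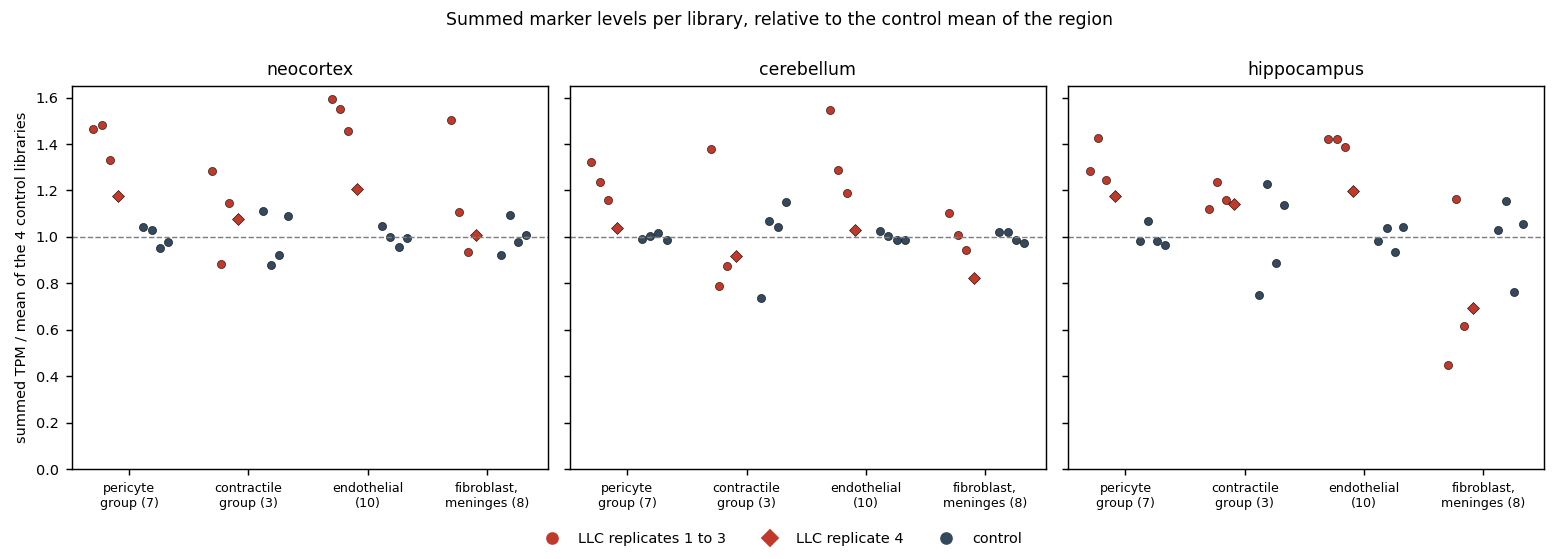
Summed TPM of 4 gene groups in each library divided by the mean of the 4 controls of its region (dashed line at 1; number of genes in brackets), LLC in red left of controls in blue, LLC replicate 4 as a diamond. The pericyte and endothelial groups lie above 1 in all LLC libraries, the fibroblast group lies on both sides of it, and the contractile group overlaps between LLC and control in each region.

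In control mice, 9 of the 10 members were lowest in hippocampus. Against control cerebellum all 10 were lower in control hippocampus and passed, by -0.27 for Rgs5 to -0.91 for Tagln on the log2 scale; over all genes 83% passed, 56% downward, with a median of -0.23. With median-ratio scaling 8 of the 10 passed, and Rgs5 (-0.045, adjusted p = 0.398) and Pdgfrb (-0.063, adjusted p = 0.514) did not. Against control neocortex 9 were lower in control hippocampus and passed, by -0.23 for Pdgfrb to -0.62 for Anpep, while 62.1% of all genes passed, 21.4% downward and 40.8% upward, with a median of 0.08. Rgs5 was the exception at 75.9 ± 4.42 TPM in control hippocampus and 67.8 ± 2.36 TPM in control neocortex (0.16 ± 0.05, adjusted p = 0.00891), a call that median-ratio scaling ended (0.063, adjusted p = 0.271). Pdgfrb did not pass without replicate 14 (-0.16, adjusted p = 0.138), 15 (0.0527) or 17 (0.0824), Kcnj8 without replicate 14 (0.0566) and Tagln without replicate 16 (0.0719). For cerebellum against neocortex in control mice, 6 members were higher in cerebellum and passed: Notch3 (0.52 ± 0.09, adjusted p = 5.45e-05), Myh11 (0.44 ± 0.12, adjusted p = 0.00324), Rgs5 (0.42 ± 0.05, adjusted p = 8.45e-07), Tagln (0.42 ± 0.16, adjusted p = 0.0251), Abcc9 (0.37 ± 0.08, adjusted p = 6.06e-04) and Vtn (0.28 ± 0.08, adjusted p = 0.00426). Over all genes 84.9% passed here, 60.6% upward, with a median of 0.31. Acta2 also passed without replicate 14 (0.38, adjusted p = 0.0127), and Tagln did not pass without replicate 15, 16 or 17 (adjusted p = 0.133, 0.114 and 0.0580). With median-ratio scaling, which removes that shift, 2 of the 10 passed, Notch3 higher (0.24) and Pdgfrb lower (-0.26) in control cerebellum, and Kcnj8, Vtn, Anpep and Acta2 also turned negative.

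Over the 6 groups the order of levels differed between members. Abcc9 and Kcnj8 had the order LLC neocortex, LLC cerebellum, LLC hippocampus, control cerebellum, control neocortex and control hippocampus, with a ratio of highest to lowest group mean of 3.01 and 2.84. For Abcc9 the neighbours LLC neocortex and LLC cerebellum (10.6 ± 2.93 and 9.92 ± 1.83 TPM) and LLC hippocampus and control cerebellum (7.28 ± 2.00 and 6.17 ± 0.230 TPM) differed by less than the larger SD. Acta2, Myh11 and Notch3 shared another order, led by control and LLC cerebellum and ending with LLC and control hippocampus. Their neighbours at the top differed by less than their SD, with Acta2 at 32.3 ± 9.03 TPM in LLC cerebellum and 33.6 ± 6.45 TPM in control cerebellum. The ratio of highest to lowest group was smallest for Pdgfrb, 1.42, and 1.54 for Rgs5.

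Within groups the contractile genes varied together. After removal of each group's mean from log2(TPM + 1), the 3 pairs among Acta2, Myh11 and Tagln had Pearson r of 0.81 to 0.89 over 24 libraries, which share 1 table and its scaling. The 21 pairs of the pericyte group had a median r of 0.31 (-0.14 to 0.78), highest for Abcc9 with Kcnj8, and the 21 pairs between the groups 0.28 (-0.23 to 0.60). With only the region's mean removed, which keeps the effect of LLC injection, the medians were 0.80 for the contractile pairs, 0.64 for the pericyte pairs and 0.39 between the groups. On that second scale the non-member genes most like Abcc9, among 12578 compared, were Adgrl4 (r = 0.97), Fas (0.96), Alas2 (0.96), Vegfa (0.96) and Fam107a (0.96). Those most like Acta2 were Tpm2 (0.77), Parp10 (0.70), Cytl1 (0.69), Tfeb (0.67) and Smco3 (0.66). The mean of the pericyte group was most like Fn1 (0.95), Ptrf (0.94), Adgrf5 (0.94), Smad6 (0.94) and Cp (0.94), and that of the contractile group like Tpm2 (0.83), Cytl1 (0.73), Ctdspl (0.73), Otof (0.72) and Smco3 (0.71). These r values describe the 24 libraries and carry no test.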

How the data were processed

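Per the labels' protocols, RNA of 24 libraries, 4 per region and treatment, was extracted with Trizol and sequenced with a stranded mRNA kit. What the authors deposited is a single table of gene symbols with a TPM value for each library. The build, per the submitters' processing notes, is mm10. The aligner, counter, annotation and use of strand were not given in the sources used here. Since TPM values keep no depth, the precision of single values is unknown.

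Libraries were grouped by the labels. Values were tested as log2(TPM + 1) with limma 3.58.1 (lmFit, eBayes with trend) in R 4.3.3, over genes with a mean of at least 1 TPM in the libraries of the comparison, with Benjamini-Hochberg adjustment over all genes tested, a threshold of 0.05 and two-sided p-values. Each region was fitted alone (4 LLC against 4 control libraries). The region average is the mean over 3 regions per title number. Differences between regions' effects and between control regions are contrasts in fits over several regions. The fits were also run on simulated data with independent noise for each gene and library, with an outcome not reported here. Such data hold no outlying libraries, so the run does not speak to their effect.

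The members and gene lists were chosen with earlier results of these data known. All 10 members are named, and from each list at most 4 genes per region that passed, by smallest p; other names are marked. The lists hold other mural genes, contraction genes, partners of the members (growth factor, Notch, potassium channel, vitronectin, G-protein, TGF-beta and angiopoietin) and markers of endothelium, fibroblasts, erythrocytes, choroid plexus, astrocytes, microglia, oligodendrocytes and neurons; some genes of the lists are not reported here. A few symbols were matched through RefSeq synonyms. Coordinates are from GENCODE M21 and promoters from RefSeq on GRCm38.p6. Alternatives were a pseudocount of 0.1, a filter at 5 TPM or none, median-ratio scaling, quantile normalization, rescaling without haemoglobin genes and Alas2, robust variance, library weights, all 24 libraries in 1 fit, a replicate block and leaving out each library. Replicate numbers were taken to pair samples where every pair's deviations correlated above 0.1. LLC and control libraries of a region that share a description number (1 to 4, given to controls 14 to 17 in that order) correlated at -0.26 to 0.47, with 5 of 12 pairs over 0.1. Libraries of 2 regions that share a title number correlated at -0.10 to 0.63, with 16 of 24 over 0.1, and those of cerebellum and neocortex at 0.093 to 0.46, with 7 of 8 over 0.1. Among these the 4 control pairs were all over 0.1. By this mark the title numbers were taken to pair control cerebellum with control neocortex, where the block changed no member's call. Elsewhere the numbers do not meet this mark. The mark does not establish a pair, since LLC and control libraries, which come from different mice, reached 0.47.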

Additional observations from a re-analysis of the deposited data

Results flagged for a closer look

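Among 60 combinations of a member and a group, 5 held a library far from the other 3 of its group; chance gives about 1 in 20. Kcnj8 had 4.70 TPM in LLC hippocampus replicate 4, below the other LLC libraries (7.71 to 8.20 TPM). Rgs5 had 89.5 TPM in LLC cerebellum replicate 4, below 108 to 111 TPM. Pdgfrb had 14.4 TPM in LLC hippocampus replicate 1, below 16.7 to 17.1 TPM. Kcnj8 had 6.93 TPM in control cerebellum replicate 15, above 5.06 to 5.15 TPM. Notch3 had 4.37 TPM in control hippocampus replicate 14, below 5.92 to 6.02 TPM.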

How the results depend on the processing

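The depth is unknown, which limits statements on low genes such as Anpep. Over single members, 573 values kept direction and side of the threshold under other settings, 16 lost and 18 gained a call and 19 changed sign; without 1 library the numbers were 572, 66, 10 and 32. Causes of the changes were not tested.

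Genes that passed in neocortex (1237) numbered 577 with no filter, 4337 with library weights and 784 with all 24 libraries in 1 fit, and 187 to 3834 without 1 library; members (5) numbered 1 to 6. In cerebellum genes (366) numbered 71 with no filter, 654 with median-ratio scaling, 802 with quantile normalization, 5769 with weights and 3012 with all 24 libraries, and 6 to 1570 without 1 library; members (1) numbered 0, 7 and 2 with no filter, weights and all 24 libraries, and 0 to 4 without 1 library. In hippocampus genes (529) numbered 220 with no filter and 1180 with weights, and 57 to 1667 without 1 library; members (3) numbered 0 with no filter and 0 to 3 without 1 library. For the average, genes (1950) numbered 1088 and members (4) 2 with no filter, with 379 to 4331 and 1 to 6 without 1 number. For cerebellum minus neocortex, genes (89) numbered 2052 and members (0) 3 with weights, with 4 to 287 and 0 to 1 without 1 number. For hippocampus minus cerebellum, genes (13) numbered 3 with the filter at 5 TPM and 595 with weights, and 1 to 220 without 1 number. For control cerebellum against control neocortex, members (6) numbered 2 with median-ratio scaling.

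Log2 differences that changed sign were as follows. In neocortex Anpep was -0.0284 with quantile normalization. In cerebellum Notch3 was 0.0261 with median-ratio scaling, 0.0341 with quantile normalization and 0.00697 without haemoglobin genes, and Tagln was -0.26 with weights. In hippocampus Anpep was -0.0105 with weights, and for the average 0.00272 without haemoglobin genes. For hippocampus minus neocortex, weights gave -0.0477 for Vtn, -0.0237 for Acta2, -0.0565 for Myh11 and -0.15 for Tagln. For hippocampus minus cerebellum, Pdgfrb was -0.00419 with median-ratio scaling and -0.0341 with weights, and Rgs5 0.0234 with weights. For control cerebellum against control neocortex, median-ratio scaling gave -0.12 for Kcnj8, -0.039 for Vtn, -0.26 for Pdgfrb, -0.13 for Anpep and -0.16 for Acta2.

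Without 1 library, sign changes lay within these ranges. In neocortex Acta2 ran from -0.0272 to 0.16. In cerebellum Notch3 ran from -0.0529 to 0.0275, Acta2 from -0.24 to 0.0172 and Tagln from -0.12 to 0.17, and in hippocampus Anpep from -0.0489 to 0.14. For the average, Anpep ran from -0.042 to 0.0306 and Acta2 from -0.0113 to 0.13. For hippocampus minus neocortex, Kcnj8 ran from -0.14 to 0.00263, Pdgfrb from -0.12 to 0.0246, Anpep from -0.13 to 0.0857, Acta2 from -0.0118 to 0.34, Myh11 from -0.0548 to 0.18 and Tagln from -0.16 to 0.17. For hippocampus minus cerebellum, Pdgfrb ran from -0.0100 to 0.10, Rgs5 from -0.0594 to 0.0403 and Tagln from -0.0418 to 0.36.

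With the replicate number as a block (the description number within a region, the title number across regions), in comparisons where not every pair correlated above 0.1, genes numbered 641 in neocortex, 724 in cerebellum, 179 in hippocampus, 205 for cerebellum minus neocortex and 40 for hippocampus minus cerebellum. Members under the block numbered 1 in hippocampus, where Abcc9 and Kcnj8 had adjusted p-values of 0.0616 and 0.0545, and 1 for cerebellum minus neocortex, Abcc9 (-0.43, adjusted p = 0.0401).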
